A study of Homo sapiens with 4 samples.

Results

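The parental A375 libraries were the subject of the description that follows. They were chosen by their labels, as replicates 1 and 2 of the parental line, and make up 2 of the 4 libraries in the series. A375 is an established human melanoma cell line. The parental cells carry wild-type p53, and the other 2 libraries come from A375 cells in which p53 was knocked out with CRISPR-Cas9. All cells were grown in DMEM, and polyadenylated RNA was sequenced from strand-specific libraries. No label tells if replicates were grown as separate cultures or if the knockout is 1 clone. Differences between the parental libraries therefore measure a spread that may be technical.

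Melanoma arises from melanocytes, pigment cells that descend from the neural crest. In melanocytes the transcription factors SOX10, PAX3 and MITF maintain the lineage, and MITF drives the genes of melanin synthesis. Melanoma lines are known to lie between a differentiated, pigmented state and an undifferentiated state with low MITF and high AXL. Many melanomas depend on the MAPK cascade, which runs from RAS through RAF, MEK and ERK to a set of feedback genes.

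The parental libraries held 29230554 and 36331894 recovered reads, with at least 1 read for 18755 and 18944 of 26484 genes. Values of each gene are given as normalized counts of parental library 1 and then library 2. Ranks by normalized count show where the reads went and grow with gene length. Levels of different genes are compared by RPKM, the reads of a gene scaled to its exon length in kilobases and to the total of the library, given as the mean of both libraries unless stated. A gene was called silent when it was under 3 normalized counts in both. For a gene with 2 kb of exon that limit corresponds to 0.0468 RPKM. A gene with 0 reads could still hold up to 3 reads, which is 3.29 normalized counts in library 1 and 2.63 in library 2. That floor covers counting error only. The knockout libraries are called 2 and 8 after their deposited columns.

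The following sets of sequences bear on the results below, all from RefSeq on build GRCh38.p14. The M-box TCATGTG, the element through which MITF binds pigmentation genes, is in capitals in the 250 bases before the start of TYR (chr11:89177625-89177874, plus strand), TYRP1 (chr9:12693135-12693384, plus strand) and GPNMB (chr7:23246525-23246774, plus strand). They are shown because the first was silent, the second barely detected and the last well expressed. In GPNMB the element lies on the opposite strand and reads CACATGA.
TYR: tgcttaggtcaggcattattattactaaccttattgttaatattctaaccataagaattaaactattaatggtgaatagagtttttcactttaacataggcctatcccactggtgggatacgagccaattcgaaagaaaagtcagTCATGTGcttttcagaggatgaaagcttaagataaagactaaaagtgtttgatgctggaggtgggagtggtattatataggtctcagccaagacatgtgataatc
TYRP1: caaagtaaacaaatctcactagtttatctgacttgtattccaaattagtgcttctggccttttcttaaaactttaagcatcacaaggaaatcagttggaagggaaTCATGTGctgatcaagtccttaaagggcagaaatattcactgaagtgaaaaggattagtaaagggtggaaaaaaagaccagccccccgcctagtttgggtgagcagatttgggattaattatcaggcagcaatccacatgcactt
GPNMB: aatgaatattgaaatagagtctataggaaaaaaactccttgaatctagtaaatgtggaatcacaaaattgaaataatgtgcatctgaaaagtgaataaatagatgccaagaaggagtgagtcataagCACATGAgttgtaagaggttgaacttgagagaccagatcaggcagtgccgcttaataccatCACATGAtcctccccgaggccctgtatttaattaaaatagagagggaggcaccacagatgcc

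The second set shows the core ACGTG of the hypoxia response element in the 250 bases before 3 genes that were among the most different between the parental libraries. CA9 lies on the plus strand (chr9:35673678-35673927), as does ANGPTL4 (chr19:8363905-8364154), and MIR210HG lies on the minus strand (chr11:568458-568707). In CA9 and ANGPTL4 the core is on the opposite strand and reads CACGT.
CA9: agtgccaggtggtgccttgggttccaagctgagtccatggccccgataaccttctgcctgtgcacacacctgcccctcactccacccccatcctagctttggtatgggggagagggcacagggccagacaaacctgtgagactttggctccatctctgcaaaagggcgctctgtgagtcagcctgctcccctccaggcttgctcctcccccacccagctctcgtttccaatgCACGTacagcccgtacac
ANGPTL4: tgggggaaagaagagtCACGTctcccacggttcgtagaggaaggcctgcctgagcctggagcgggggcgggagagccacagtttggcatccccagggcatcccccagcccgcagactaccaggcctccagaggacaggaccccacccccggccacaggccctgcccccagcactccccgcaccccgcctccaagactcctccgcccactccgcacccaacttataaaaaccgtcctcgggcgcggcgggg
MIR210HG: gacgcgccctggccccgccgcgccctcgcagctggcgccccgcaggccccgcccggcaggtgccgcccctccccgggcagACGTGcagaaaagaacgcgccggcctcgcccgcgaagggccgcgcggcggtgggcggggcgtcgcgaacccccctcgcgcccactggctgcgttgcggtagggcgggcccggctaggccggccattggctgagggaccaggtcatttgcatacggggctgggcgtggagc

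The last set holds 2 mature miRNAs, with the seed (bases 2 to 8) in capitals. The hairpin of miR-211 lies within TRPM1, a pigment cell gene, and the hairpin of miR-210 lies within the span of MIR210HG.
hsa-miR-211-5p: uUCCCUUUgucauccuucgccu
hsa-miR-210-3p: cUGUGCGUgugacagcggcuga

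SERPINE2, a secreted inhibitor of serine proteases, had the highest normalized counts of all genes, 122739 and 119478. The gene lies at chr2:223975112-224039319 of GRCh38. Translation factors EEF2 (97973 and 92920) and EEF1A1 (91408 and 83965) followed. GAPDH, a glycolytic enzyme, was measured at 81705 and 73795. LOXL4, a lysyl oxidase that crosslinks collagen, was measured at 82878 and 67394. VIM, the intermediate filament protein of mesenchymal cells at chr10:17228259-17237593, was measured at 75622 and 69314. In each of the 6 genes named here, library 1 was the higher. The genes next in order were PYGB, GNAS, ALDH1A3, which makes retinoic acid, and TNC, an extracellular matrix glycoprotein. The 10 most abundant genes took 2.57% and 2.39% of reads, and 1429 genes held 50% of the normalized counts.

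Per exon length the order changed. The ribosomal protein gene RPL13A was highest at 1321 RPKM in library 1 and 1234 in library 2. VIM followed with 1263 and 1164, and SERPINE2 with 1216 and 1191. Ribosomal proteins made up 15 of the 20 highest genes per exon length, against 3 of the 20 highest by count. Their 79 genes took 4.77% and 4.51% of all reads. VIM, SERPINE2, GAPDH, EEF2 and EEF1G were the other 5 of the 20. Only 7 genes stood in both lists of 20. The order per exon length depends on which transcripts define a gene's length. With the exons of all GENCODE 29 transcripts in place of the basic set, 9 of these 20 genes stayed among the 20 highest. VIM then ranked 18 (440 RPKM), SERPINE2 20 (426 RPKM) and GAPDH 1 (816 RPKM), while MITF was at 6.99 RPKM. Among genes of narrower distribution, CD74, the invariant chain of MHC class II, ranked 24 by RPKM (682; 32 with all transcripts). IL13RA2, a decoy receptor for interleukin 13, ranked 26 (678; 5 with all transcripts).

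**Figure D1:**
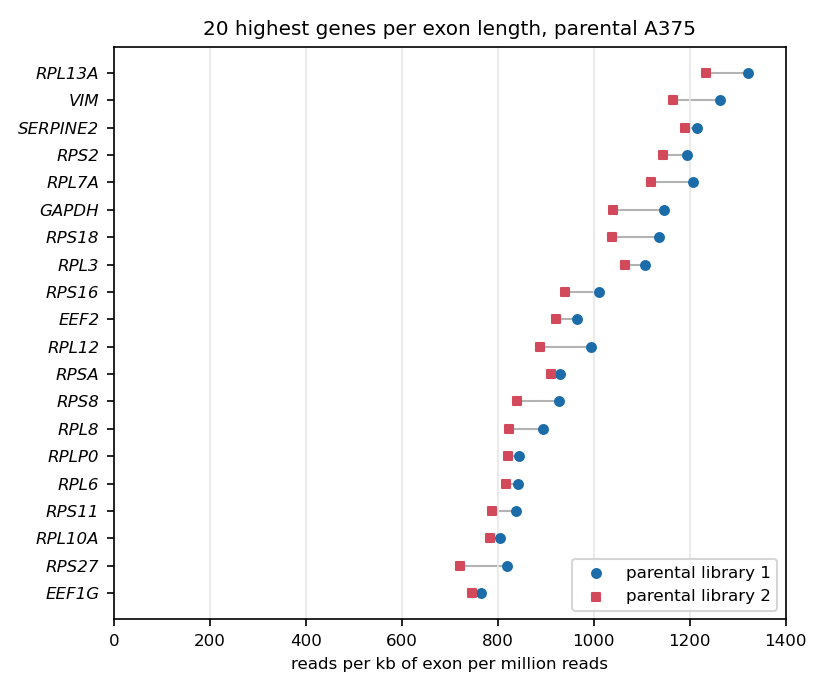
Level of the 20 highest genes per exon length in parental library 1 (circles) and library 2 (squares), in RPKM from 0 upwards, with a grey line joining the libraries. VIM and SERPINE2 stand among ribosomal protein genes, and library 1 is the higher for each gene shown.

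Of 26484 genes, 9231 were silent (34.9%), and 6792 of them had 0 reads in both libraries. That share takes in non-coding rows, and of 19099 protein-coding genes 4509 were silent (23.6%). At the other end, 12293 genes reached 1 RPKM, 6440 reached 10 and 551 reached 100. Several families of other tissues were silent in most or all members. All 93 keratin-associated protein genes, which build hair, fell under the limit, as did all 13 interferon alpha genes and 353 of 371 olfactory receptors. Beta-defensins were silent in 36 of 37 cases and UDP-glucuronosyltransferases, which conjugate drugs and bilirubin, in 19 of 21. In contrast, 21 of 506 zinc finger genes named ZNF were silent, 1 of 77 mitochondrial ribosomal proteins, and none of the clustered protocadherins (22 gamma, 16 beta and 15 alpha genes).

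Some silent rows concern genes whose exons lie largely inside another gene. Of 148 protein-coding genes with at least 80% of exon bases shared with another gene of the table, 109 were silent (73.6%), against 23.6% of all 19099 protein-coding genes. EIF4A1, an RNA helicase of translation initiation, had 0 reads in both libraries, and 83.5% of its exon bases are shared with other genes of the table, SENP3-EIF4A1 among them. SENP3-EIF4A1 itself was at 5.48 and 6.14 normalized counts. EIF3C, which has a near-identical copy, was at 6.58 and 7.89. Such rows do not show that the gene was off. The same holds for the miRNA rows, of which 1673 of 1878 were silent (89.1%), since mature miRNAs have no poly(A) tail.

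The limit falls in a range of few reads, and 865 genes were under it in only 1 library. Just inside the limit, 87 silent genes had a mean of 2 or more. Just outside it, 811 genes had a mean under 4.

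SOX10, the central regulator of the neural crest and melanocytes, was the highest of 15 lineage transcription factors, at 30033 and 29587 normalized counts (315 RPKM). TFAP2B, a neural crest factor, followed at 25529 and 23014 (132 RPKM). Its relative TFAP2A, which works with MITF in melanocytes, was at 462 and 395 (2.89 RPKM). SOX5, which is known to oppose SOX10 in melanocytes, was at 10792 and 9129 (39.3 RPKM). FOXD3, a factor of the early neural crest, was at 782 and 911 (12.7 RPKM). The libraries lay close together for each of these genes relative to the distances between the genes.

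MITF, at chr3:69739435-69968337, was at 1645 and 1562 normalized counts, or 8.40 and 8.03 RPKM. It ranked 5333 by count, and genes that were not silent had a median of 6.09 RPKM. PAX3, which activates MITF, was at 614 and 626 (4.71 RPKM). Among the relatives of MITF, TFE3 was higher per exon length (24.4 RPKM), TFEB was lower (1.15 RPKM), and TFEC, normally a macrophage factor, was the only silent member of the list. SOX9 was at 21.9 and 19.3 (0.164 RPKM). IRF4, a pigmentation factor, was at 5.48 and 3.51, close to the limit.

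Of 30 pigmentation genes, 7 were silent (23.3%), near the 23.6% of protein-coding genes and below the 34.9% of all genes. The silent members included enzymes of pigment synthesis and a diagnostic antigen. TYR, the rate-limiting enzyme of melanin synthesis, had 0 reads in both libraries, as did MLANA, the Melan-A antigen, TRPM1, SLC24A5 and ST8SIA6. DCT, an enzyme of the same pathway, was at 2.19 and 0.877. The melanosome fibril protein PMEL was at 28.5 and 28.1 (0.312 RPKM) and TYRP1, another melanogenic enzyme, was at 14.3 and 5.26. Genes of lysosome-related organelles and vesicle transport were among those detected. GPNMB, a glycoprotein of melanosomes and lysosomes, was at 2743 and 2725 (21.6 RPKM). MYO5A, which carries melanosomes, was at 4121 and 3950 (10.3 RPKM). RAB38, a GTPase of melanosome delivery, was at 907 and 889 (19.2 RPKM). MC1R, the melanocortin receptor, was at 1337 and 1220 (8.29 RPKM), and S100B, the S100 protein used to diagnose melanoma, was at 2138 and 2037 (45.1 RPKM).

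**Figure D2:**
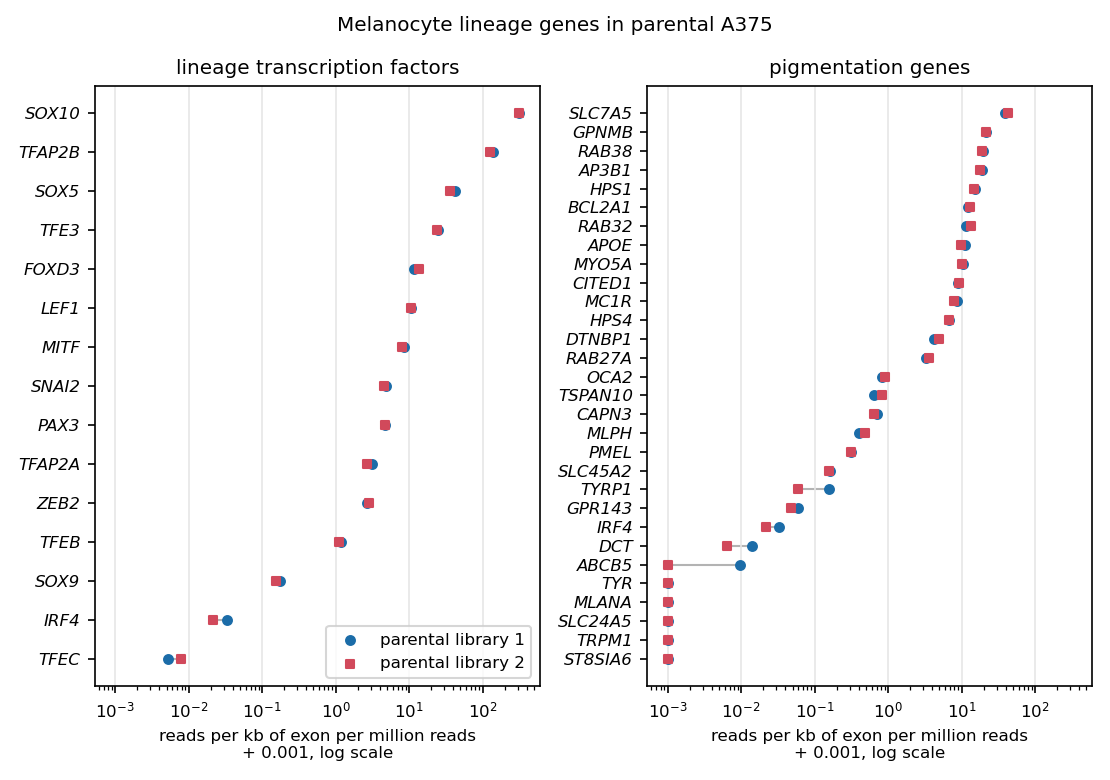
Level of each lineage transcription factor (left) and each pigmentation gene (right) in parental library 1 (circles) and library 2 (squares), as RPKM plus 0.001 on a log scale. SOX10 and TFAP2B lead the left panel, while TYR, MLANA, TRPM1, SLC24A5 and ST8SIA6 lie at 0 reads at the bottom of the right panel.

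The M-box was found, on either strand, in the 250 bases before 8 of the 23 pigmentation genes that the promoter table held, against 3.11% of all 27305 genes. Only 5 of the 23 were silent, too few to tell if presence of the letters separates silent genes from the others. The letters stood before 3 of 5 silent genes (TYR, DCT and SLC24A5) and before 5 of 18 others. Among the others was GPNMB, which holds 2 copies at 123 and 62 bases before its start. TYR holds 1 copy at 105 bases and TYRP1 1 copy at 145 bases, as printed above. MIR211, whose host is TRPM1, had 0 reads in both libraries.

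None of the 34 genes listed for the undifferentiated melanoma state was silent, beside 34.9% of all genes and 23.6% of protein-coding genes. Of these 34, 31 reached 1 RPKM, as did 12293 of the 24535 genes with an exon length. The list was chosen with earlier results of these data known, so these counts are no test of a cell state. The list was led by SERPINE2, VIM and TNC. CD44, the hyaluronan receptor, was at 109 RPKM, and FN1, fibronectin, was at 17974 and 12540 normalized counts (52.5 RPKM). AXL, a receptor tyrosine kinase of invasive melanoma, was at 7867 and 7127 (47.9 RPKM). NGFR, a receptor of neural crest stem cells, was at 275 and 352 (2.67 RPKM), and EGFR was at 601 and 545 (1.58 RPKM). Genes of neural crest and Schwann cells were present beside them. ERBB3 was at 24465 and 23397 (101 RPKM), the intermediate filament gene NES at 86.7 RPKM and RXRG at 53.6 RPKM. The glial genes MBP and GFAP were silent, as were CDH6, GFRA3 and PAX7. The same libraries thus held AXL and VIM beside SOX10, with MITF at 8.21 RPKM.

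Lists of markers of other cell types differed in how many members were silent, beside 34.9% of all genes and 23.6% of protein-coding genes. Blood markers were silent in 13 of 20 cases (65.0%), PTPRC, MS4A1 and HBB among them. The pan-myeloid lysosomal protein CD68 was at 1704 and 1448 (26.3 RPKM). Among epithelial genes 9 of 28 were silent (32.1%), near the share of all genes and above that of protein-coding genes. CDH1 had 0 reads and KRT5 was at 1.10 and 0.877, while the simple-epithelium keratin KRT18 was at 6548 and 6494 (102 RPKM). Of 18 fibroblast markers 5 were silent (27.8%). COL3A1 was silent, COL1A2 was at 1.10 and 3.51, and COL1A1 at 63.6 and 47.4 (0.258 RPKM), while the mesenchymal factor PRRX1 was at 9459 and 9937 (39.2 RPKM) and the calcium-binding protein gene S100A4 at 152 RPKM. Of 16 endothelial markers 4 were silent (25.0%), the junction genes CDH5 and CLDN5 among them, and PECAM1 was at 7.67 and 6.14. The TGF-beta co-receptor ENG was at 28.4 RPKM, however, and the VEGF receptors FLT1 and KDR were at 4.34 and 2.44 RPKM. In the muscle and liver list 13 of 18 were silent (72.2%). Of 22 neuron markers 6 were silent (27.3%), UCHL1 and DCX among them, while the beta-tubulin gene TUBB3 was at 76.1 RPKM and the enolase gene ENO2 at 4195 and 2873 normalized counts.

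Receptor tyrosine kinases receive growth signals at the cell surface. Of 58, 9 were silent (15.5%, beside 34.9% of all genes and 23.6% of protein-coding genes) and 29 reached 1 RPKM. ERBB3, which pairs with other ERBB receptors, was highest, followed per exon length by AXL, RYK (42.9 RPKM), a WNT receptor, DDR1 (30.6 RPKM), a collagen receptor, and the ephrin receptor EPHA3 (28.0 RPKM). IGF1R, the insulin-like growth factor receptor, was at 22.6 RPKM. MET was at 3679 and 3309 (16.3 RPKM). ALK was at 783 and 884 (3.96 RPKM). KIT, the receptor on which melanoblasts depend, had 0 reads in both libraries. FLT3, FLT4, EPHA1 and MUSK were also silent, and RET was at 1.10 and 2.63.

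Growth factor ligands were silent in 8 of 60 cases (13.3%, beside 34.9% of all genes and 23.6% of protein-coding genes). TGFA, a ligand of EGFR, led the list at 17413 and 14988 normalized counts (106 RPKM). MDK, a heparin-binding factor, was at 65.2 RPKM, GDNF, which signals through RET, at 17.9 RPKM and VEGFA at 17.6 RPKM. KITLG, the ligand of KIT, was at 57.0 and 73.7 (0.351 RPKM), and NRG1, a ligand of ERBB3, at 42.8 and 51.8 (0.161 RPKM). IGF1 and IGF2 were silent.

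No member of the MAPK cascade list (32 genes) was silent, beside 34.9% of all genes and 23.6% of protein-coding genes. BRAF was at 819 and 695 normalized counts (1.64 RPKM), NRAS at 3944 and 3844 (27.4 RPKM), and MAP2K1, which encodes MEK1, at 3382 and 3259 (29.7 RPKM). None of the 31 output and feedback genes was silent either, and 30 reached 1 RPKM. PHLDA1 was at 44289 and 41631 (167 RPKM). The feedback inhibitors SPRY4 (159 RPKM), SPRY2 (112 RPKM) and DUSP6 (10079 and 10290, 70.1 RPKM) stood beside CCND1, cyclin D1 (116 RPKM). IER3 was the highest of the list per exon length, at 235 RPKM. Per exon length BRAF lay below each of the output genes named here. In the PI3K list 1 of 22 genes was silent (4.5%, beside the same shares), PIK3CG, a leukocyte isoform.
Of 19 WNT ligands, 6 were silent (31.6%), near the share of all genes and above the 23.6% of protein-coding genes. In that list 3 reached 1 RPKM, with WNT5A, the non-canonical ligand of invasive melanoma, at 2258 and 2166 (10.9 RPKM). The secreted WNT inhibitor SFRP1 was at 21319 and 19837 (135 RPKM), and CTNNB1, beta-catenin, was at 64.6 RPKM. In the TGF-beta list the secreted activin inhibitor FST was at 143 RPKM and the activin subunit gene INHBA at 59.9 RPKM. In that list 6 of 48 genes were silent (12.5%, beside 34.9% of all genes and 23.6% of protein-coding genes). Of 26 NOTCH pathway genes 3 were silent (11.5%, beside the same shares), the target HES5 and the NOTCH-responsive genes HEYL and NRARP. NOTCH2 was at 17.9 RPKM and RBPJ, the DNA-binding partner, at 53.6 RPKM. Hedgehog signalling had 1 silent gene of 15 (6.67%, beside the same shares), the ligand SHH, while the transducer SMO was at 16.3 RPKM.

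Of 70 cytokines, 31 were silent (44.3%, beside 34.9% of all genes and 23.6% of protein-coding genes). The highest members were chemokines and inflammatory cytokines. CXCL8, the neutrophil chemokine, was at 12830 and 11149 normalized counts (187 RPKM). CXCL1 was at 146 RPKM, IL24 at 108 RPKM and LIF at 55.6 RPKM. IL6 lay at 2.19 and 2.63, just under the limit. IFNG, IFNB1, IL2 and IL33 were silent. Of 68 cytokine receptors 24 were silent (35.3%), including the chemokine receptors CXCR4 and CCR7. That is near the share of all genes and above the 23.6% of protein-coding genes. IL13RA2 was at 34157 and 30755, followed per exon length by TNFRSF12A (93.8 RPKM) and the interferon gamma receptor IFNGR2 (77.5 RPKM). Among G protein-coupled receptors, ADGRG1 (25.1 RPKM) and the endothelin receptor EDNRB (24.4 RPKM) of the melanocyte lineage were highest. In that list 8 of 47 were silent (17.0%, beside 34.9% of all genes and 23.6% of protein-coding genes).

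Integrins are the receptors for matrix. ITGB3, the beta 3 subunit, which is tied to melanoma invasion, was at 33547 and 30129 normalized counts (227 RPKM). ITGA3 (121 RPKM), ITGB1 (109 RPKM) and ITGA5 (95.7 RPKM) came next, and ITGAV, a partner of ITGB3, was at 5208 and 4907. Only the leukocyte subunits ITGAL and ITGAD and the epithelial ITGB6 were silent, of 26. That is 11.5%, beside 34.9% of all genes and 23.6% of protein-coding genes. Cadherins showed N-cadherin without E-cadherin. CDH2 was at 5346 and 5507 (38.2 RPKM), CDH13 at 21.9 RPKM and the neural crest cadherin CDH19 at 15.3 RPKM, while CDH1 had 0 reads. CSPG4, the melanoma chondroitin sulfate proteoglycan, was at 54957 and 52772 (203 RPKM), and MCAM, an adhesion molecule of melanoma, was at 11817 and 12262 (114 RPKM). Among 33 tetraspanins, CD63 led (178 RPKM) and 6 were silent (18.2%, beside 34.9% of all genes and 23.6% of protein-coding genes).

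Antigen presentation genes were nearly all present, with 1 silent gene of 40, the stress ligand ULBP1. That is 2.5%, beside 34.9% of all genes and 23.6% of protein-coding genes. Class I was represented by B2M (205 RPKM), HLA-B (243 RPKM) and HLA-C (176 RPKM). Class II genes, usual for professional antigen-presenting cells, were high as well. CD74 was at 36485 and 36440, HLA-DRA at 12166 and 12216 (298 RPKM) and HLA-DPA1 at 6077 and 6161 (112 RPKM). CIITA, the master regulator of class II, was at 1543 and 1596 (3.05 RPKM). HLA genes are polymorphic and alike, so their counts depend on how reads were placed, which was not stated. Among checkpoint ligands, 9 of 28 were silent (32.1%), CD80 and CD86 included, near the share of all genes and above the 23.6% of protein-coding genes. CD276 was at 39.0 RPKM, CD70 at 46.8 RPKM, and CD274, which encodes PD-L1, at 94.3 and 81.6 (0.747 RPKM).

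Of 61 matrix genes, 2 were silent, COL3A1 and LOX (3.28%, beside 34.9% of all genes and 23.6% of protein-coding genes). LOXL4 (643 RPKM), SPARC (413 RPKM) and COL9A3 (271 RPKM) were highest per exon length among the members named here, and the basement membrane laminin LAMB1 was at 163 RPKM. LOX, which shares the crosslinking activity of LOXL4, was at 2.19 and 2.63 normalized counts. Proteases and their inhibitors were silent in 3 of 47 cases (6.38%, beside the same shares). Beyond SERPINE2, SERPINA3 was at 304 RPKM, TIMP1 at 271 RPKM, TIMP3 at 227 RPKM, MMP14, a membrane protease, at 52.5 RPKM and MMP2 at 42.1 RPKM. MMP9 was at 2.19 and 5.26 and MMP3 and MMP7 were silent.

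HOX genes keep positional identity, and cancer-testis genes belong to the germ line. Of 39 HOX genes only HOXB1 was silent (2.56%, beside 34.9% of all genes and 23.6% of protein-coding genes). HOXB2, HOXC10 and HOXB7 led per exon length at 37.7, 26.3 and 25.5 RPKM. Of 55 cancer-testis genes 23 were silent (41.8%, beside 34.9% of all genes and 23.6% of protein-coding genes). MAGEA4 was at 21453 and 22493 (302 RPKM), PAGE5 at 137 RPKM, PRAME at 89.0 RPKM and MAGEC2 at 81.7 RPKM. Members of the MAGEA, GAGE and SSX families have near-identical copies, and single members are uncertain. Among 8 inhibitors of cyclin-dependent kinases, CDKN2B had 0 reads in both libraries. CDKN2A, its neighbour on chromosome 9, was at 310 and 222 (2.64 RPKM). CDKN1A, a p53 target, was at 3561 and 3889 (46.5 RPKM) and MDM2, the p53 ubiquitin ligase, at 4359 and 4775 (11.2 RPKM).

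The parental libraries were then set against each other over the 13162 genes with a mean of at least 50 normalized counts. Pearson's r of the log2 values was 0.997 across genes, which are not independent replicates. The SD of the log2 difference was 0.16, and 95.1% of genes lay within 1.25-fold. With 1 library a side there is no test of these differences. Intervals below are exact 95% binomial intervals of the ratio and cover counting error only. In 31.5% of genes that interval left out 1. The libraries therefore differed beyond counting error at many genes, mostly by small amounts. Library 1 was higher by 1.5-fold or more for 87 genes (0.661%) and library 2 for 24 (0.182%), in all 111 genes (0.843%). By 2-fold or more, library 1 was higher for 6 genes (0.0456%) and library 2 for none. The knockout pair was farther apart over the same genes, with an SD of 0.53 and 650 genes past 2-fold (4.94%). These genes were chosen by their parental mean, with no floor on the knockout values. The 2 pairs were therefore not compared on equal terms.

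The genes most above in library 1 included several that low oxygen is known to induce. CA9, a carbonic anhydrase that is a classic target of the hypoxia-inducible factor HIF, was at 1361 in library 1 and 288 in library 2. That is a 4.73-fold difference (interval 4.18 to 5.36). ANGPTL4, a secreted inhibitor of lipoprotein lipase, was at 1342 and 426, a 3.15-fold difference (2.83 to 3.50). MIR210HG, the host of miR-210, was at 428 and 161, a 2.66-fold difference (2.23 to 3.19). The MIR210 row held 13 reads and 2 reads, a ratio of 8.12 with a wide interval of 1.84 to 74.2. HILPDA, which coats lipid droplets under low oxygen, was at 1180 and 621 (1.90-fold). NDRG1 was at 7580 and 4280 (1.77-fold) and BNIP3, a mitophagy receptor, at 5313 and 3473 (1.53-fold).

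BAIAP3, GABRE, SH3D21, the antisense rows TSPEAR-AS2 and TSPEAR-AS1, ST13P4 and PPFIA4 completed the 10 largest differences among genes higher in library 1, between 1.94-fold and 2.47-fold. TXNIP, which blocks glucose uptake, was at 6704 and 3709 (1.81-fold), and its relative ARRDC4 at 691 and 412 (1.68-fold). HIF1A, which encodes the oxygen-regulated HIF subunit, was nearly equal at 9836 and 10194, and EPAS1, which encodes its relative, was at 202 and 125. HIF is controlled mainly through protein stability, which RNA counts do not show. A cause of the differences between the libraries was not tested.

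Genes most above in library 2 had smaller ratios and low counts. DDN, a gene of dendrites and podocytes, was at 49.3 and 98.2, a 1.99-fold difference (1.40 to 2.88). IL17D, a cytokine, was at 41.7 and 73.7, and PEG10, an imprinted gene of retrotransposon origin, at 76.7 and 132. The other 7 were MGC16025, ANXA2R, IL21R, LOC101928069, LINC01224, HSPB8 and SNORA27, with ratios between 1.62 and 1.67. The highest value among the 10 genes was 218 normalized counts, of LINC01224 in library 2.

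**Figure D3:**
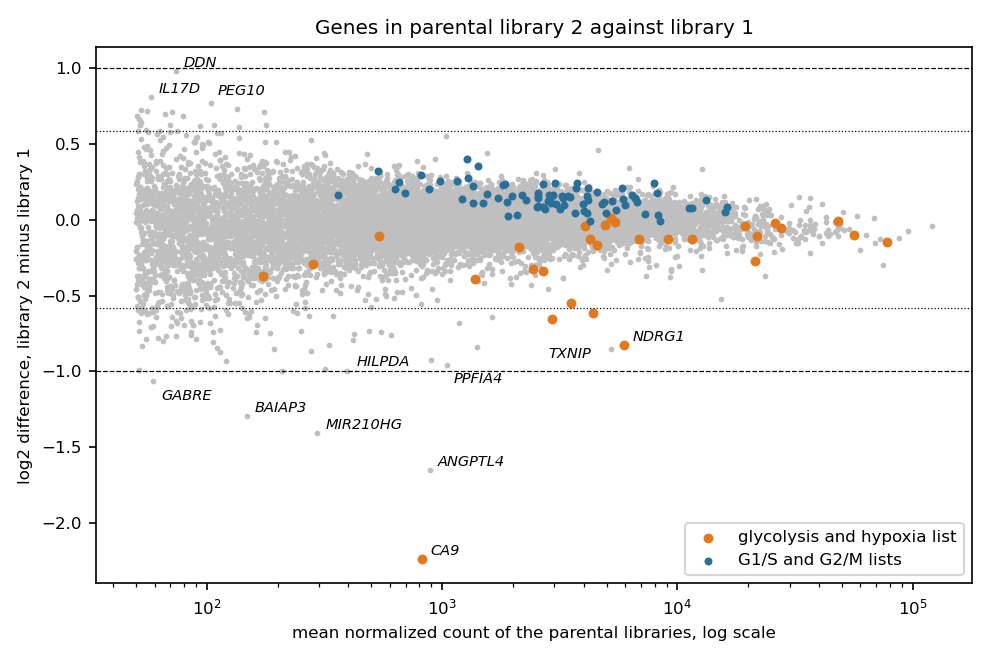
Log2 difference of normalized counts plus 1 (library 2 minus library 1) against the mean normalized count on a log axis, for 13162 genes (grey), with the glycolysis and hypoxia list in orange and the cell cycle lists in blue. Dotted lines mark 1.5-fold and dashed lines 2-fold; CA9, ANGPTL4 and MIR210HG lie lowest, and most blue points lie above 0.

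Whole lists shifted by small amounts in the same comparison. Over all 13162 compared genes, 6493 were higher in library 1 and 6669 in library 2. In the glycolysis and hypoxia list, 28 of 29 compared genes were higher in library 1, and the median difference (library 2 minus library 1, log2) was -0.13 against 0.0019 over all genes. Of these, 4 were past 1.5-fold in that direction, beside 0.661% of all compared genes: CA9, NDRG1, ALDOC (3586 and 2280) and BNIP3. Most enzymes moved little, such as PKM at 48232 and 47904. Genes of the G1/S transition and replication lay the other way, 39 of 40 higher in library 2 with a median of 0.16. MCM10, a replication initiation factor, was at 1100 and 1450. G2 and mitosis genes were also higher in library 2 in 39 of 40 cases, with a median of 0.14, and none of either list was past 1.5-fold. Cholesterol genes were higher in library 2 in 22 of 23 cases (median 0.10), HMGCS1 at 5669 and 6579. Cancer-testis genes were also higher in library 2, in 16 of 17 cases (median 0.12).

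Inflammatory genes of NF-kB were higher in library 1 in 26 of 28 cases (median -0.16), led by CSF2 at 203 and 121 and IL1B at 181 and 115. Matrix genes were higher in library 1 in 42 of 50 cases (median -0.14), among them FN1. Cytokines and chemokines were higher in library 1 in 16 of 21 cases (median -0.19) and integrins in 14 of 18 (median -0.13). Ribosomal proteins were higher in library 1 in 77 of 79 cases (median -0.09). Pigmentation genes were even, with 8 of 17 higher in library 2 and a median of -0.01. Genes of a list share their library, so these counts describe 1 pair of libraries and are no measure of chance. Medians over the genes of each of 23 chromosomes lay between -0.01 and 0.01. The libraries also differed in depth, and the part of depth in the list medians was not tested. With totals in place of the deposited factors, the medians were -0.12 for the glycolysis and hypoxia list, 0.17 for G1/S and 0.15 for G2/M.

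**Figure D4:**
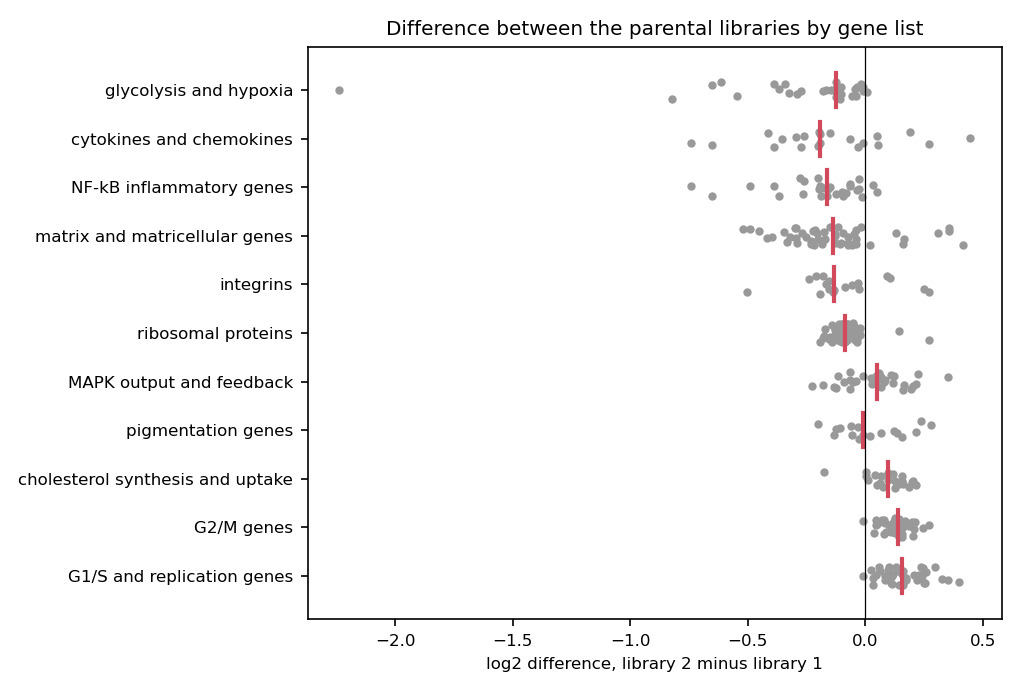
Log2 difference between the parental libraries (library 2 minus library 1) for each compared gene (grey points) of 11 lists, with the median of the list as a red line. The hypoxia, cytokine, NF-kB and matrix lists lie left of 0 and the cell cycle lists right of it.

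Of the 10 genes most above in library 1, 9 had an entry in the promoter table, and 6 of these held ACGTG on either strand in the 250 bases before a start. The background was 21.7% of 27305 genes, a set that takes in genes not compared between the libraries. A gene counted if any of its starts held the core. The 10 genes were picked by their values in these data, so the counts are no test. In the glycolysis and hypoxia list 17 of 26 genes held it, and of the library 2 genes 1 of 5. In CA9 the core lies 18 bases before the start, in ANGPTL4 234 bases and in MIR210HG 170 bases, as printed above. A match of 5 letters is a description of the window and does not show that a factor binds there.

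Across the study's conditions, the question was whether the baseline levels also held in the p53 knockout. limma, with adjustment over all 15431 genes tested, called 0 genes (0%), with 903 higher and 950 lower in the knockout at an unadjusted p under 0.05. Both edgeR fits also called 0, and DESeq2 called 398 of 16330. The groups did not overlap, in either direction, for 46.4% of the genes tested. MITF was at 849 and 1050 in the knockout libraries, both below the parental values, a log2 difference of -0.76 ± 0.13 (SE; limma adjusted p = 0.237). DESeq2 called the same gene (adjusted p = 0.0027), and over all alternatives its adjusted p ran from 3.2e-06 (limma without knockout library 8) to 0.999 (limma without parental library 1). VIM was at 52686 and 42757, also below both parental libraries (-0.61 ± 0.16, limma adjusted p = 0.306; DESeq2 adjusted p = 0.0099, with a range from 0.00012 to 0.999 over the alternatives). SERPINE2 was at 123718 and 150876, above both parental values by 0.17 ± 0.17 (limma adjusted p = 0.708). SOX10 was at 28125 and 25662 (limma adjusted p = 0.599), and AXL at 10108 and 7778 against 7867 and 7127, so that the groups overlapped (limma adjusted p = 0.572). TYR and MLANA had 0 reads in all 4 libraries. CA9 was at 924 and 427 in the knockout libraries, between the parental values of 1361 and 288.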

How the data were processed

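Polyadenylated RNA was measured in 4 A375 libraries, 2 parental and 2 p53 knockout. The deposited table holds, per library, a normalized signal for 26484 genes. The submitters' processing notes name hg38 and the tools STAR, HTSeq, Picard, deepTools and DESeq2. Versions, annotation, strand setting and the handling of multiply aligned reads: not given in the sources used here. In each library all values were multiples of 1 step (100% whole within 0.001), so reads could be recovered. The reciprocals of the steps (0.912 and 1.14 for the parental libraries) equalled median-of-ratios factors. Columns of the knockout are numbered 2 and 8, match no labelled replicate and were used by group. The table has 0 mitochondrial rows, and 0 columns were left out.

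Exon lengths were the union of exons of GENCODE 29 basic transcripts on GRCh38, found for 24535 genes. A long, little-used transcript lowers RPKM, so ranks per exon length are approximate. The members and the 51 gene lists (1783 of 1787 entries found in the table) were chosen with earlier results of these data known. Named were the 20 highest genes by count and per exon length, up to 6 of the highest and 4 silent members per list, the 10 largest replicate differences each way, up to 3 per list and 10 genes fixed by name; further list members were named after their values were seen. Replicate differences are log2 of normalized counts plus 1. Parental and knockout libraries were compared with limma 3.58.1 (trend) after adding 1 to normalized counts and taking log2. Genes needed 10 normalized counts in 2 libraries, and Benjamini-Hochberg adjusted p-values were held to a threshold of 0.05; the design had named this test for a normalized table. edgeR 4.0.16 (quasi-likelihood) and DESeq2 1.42.0 on recovered reads were alternatives, as were other filters, pseudocounts, scalings and leaving out libraries. The limma step was tested on simulated data. Motifs were sought on both strands of the 250 bases before each RefSeq start (GRCh38.p14). Results for some genes are not reported here.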

Additional observations from a re-analysis of the deposited data

How the results depend on the processing

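Silent genes numbered between 7438 and 11042 under the other thresholds, and 9562 to 9765 when 1 parental library was used. The 100 most abundant genes held 12.2% of normalized counts, 17.1% of summed levels per kilobase of exon, and 14.5% with the exon length of all transcripts, an alternative chosen after seeing the data. Genes past 2-fold between the parental libraries rose from 6 to 103 at a minimum mean of 10, and those past 1.5-fold from 111 to 551, or fell to 27 at a minimum of 200; under another pseudocount, TMM or total scaling they stayed between 5 and 8 and at 117 or 118. In the comparison with the knockout, limma called 102 genes with no filter on low values and DESeq2 called 398; leaving out 1 library gave between 0 and 5023 calls, with 0 without either parental library, 2896 without knockout library 2 and 5023 without knockout library 8, where the lone sample is assumed to vary like the other group. Of 80 single values under alternatives, 73 kept their direction and, where they had a p-value, their side of the threshold. The other 7, of MITF, VIM and AXL against the knockout, passed it under DESeq2 or without a knockout library. The replicate differences among the 80 have no p-value and could not pass a threshold. Those of single genes also cannot change with the minimum mean, so the count of 73 is no measure of robustness. No paired analysis was possible because the knockout columns do not carry the labelled replicate numbers. Depth limits calls near 3 reads.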
